A study of Mus musculus with 25 samples.

Results

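The interleukins are secreted messengers between immune, stromal and epithelial cells, and this account follows the mouse genes for the interleukins and their receptors in E0771 tumours. The members are the rows of the deposited expression table whose symbol begins with Il and a digit, 83 of 25006 entries. They comprise 39 ligands, including the receptor antagonist gene Il1rn, 41 receptor chains, and Il18bp, Il1bos and Il4i1, which encode a soluble binding protein, an RNA antisense to Il1b and an amino acid oxidase. E0771 is a mammary carcinoma line that grows in C57BL/6 mice. In the first group, mice of strain C57BL/6 with E0771 tumours were given an antibody to CD73 every 3 days (3 libraries). In the other group, labelled only as con, mice of the same strain bore the same tumours (3 libraries). Whether the control animals received another antibody, the ages of the mice and whether each library came from 1 mouse are not stated.

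Interleukins act through paired receptor chains, and one chain often serves several cytokines. IL-1, IL-33 and IL-36 signal through chains that share the accessory protein encoded by Il1rap, and IL-18 through a chain paired with that of Il18rap. All use the adaptor MyD88. IL-1 is held in check by the antagonist IL-1RA and by the decoy receptor IL-1R2, which binds IL-1 without signalling. Most other families signal through JAK kinases and STAT factors: IL-2, IL-4, IL-7, IL-15 and IL-21 through the common gamma chain (Il2rg), IL-6 and IL-11 through gp130 (Il6st), and IL-10 through Il10ra with Il10rb. CD73 is the enzyme on the cell surface that makes adenosine from AMP, and adenosine acts on many of the myeloid and lymphoid cells that make or receive these messengers. The comparison asks which interleukin and receptor transcripts differed when CD73 was targeted.

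The libraries held between 10180624 and 17161679 reads in genes, recovered from the deposited values. The labels call the material enriched CD8+ T cells from tumour tissue. The 11 genes found of a T cell receptor and CD8 list summed to 589, 522 and 304 normalized counts in anti-CD73 replicates 1, 2 and 3. In control replicates 1, 2 and 3 they summed to 643, 155 and 219. The 14 macrophage markers summed to 17012 to 27190 after anti-CD73 and 11244 to 17855 in controls, and the 10 neutrophil markers to 8929 to 15870 and 6036 to 8253. The values thus describe mixed tumour material, in which fewer cells of a type and less RNA per cell cannot be told apart. Control replicate 1 stood apart: on the log2 scale its values departed from the average of the remaining controls with an SD of 0.75 across tested genes, against 0.35 between control replicates 2 and 3. Values without it are given beside the results that it moves most. Control replicate 1 was singled out from these same data, so adjusted p-values without it are no independent support for a difference.

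Of the 83 members, 49 had a mean of at least 10 normalized counts over the 6 libraries and were tested, 26 had reads but a lower mean, and 8 had no read. Among the tested members, transcripts lay mostly above the control level after anti-CD73, with 37 of 49 log2 fold changes above 0, or 75.5%, against 50.5% of all 12262 tested genes. The median log2 fold change of these members was 0.56, beside 0.0039 for all tested genes. It was 0.76 for the 20 tested ligands and 0.33 for the 27 tested receptor chains. Above 0 in the same fit were 13 of 14 macrophage, 11 of 11 T cell receptor and CD8 and 7 of 9 neutrophil markers. Their medians were 0.64, 0.66 and 0.89. Likewise above 0 were 7 of 7 dendritic cell, 4 of 4 endothelial and 5 of 5 mast cell and basophil markers. So were 7 of 10 fibroblast, 5 of 6 CD4 and regulatory T cell and 3 of 6 natural killer cell markers. For B cell, epithelial and erythroid genes it was 1 of 2, 1 of 3 and 0 of 5. The part of these cells was not tested. Of the 49, Il12a and Il12b had a control mean under 10 and entered the test only through their anti-CD73 values.

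By limma, 0 of 49 had an adjusted p under 0.05, where the share over all genes was also 0%. At an unadjusted p under 0.05 there were 12 members, or 24.5%, against 15.5% of all genes. Of these, 10 lay higher after anti-CD73 (20.4%, against 8.69% of all genes) and 2 lay lower (4.08%, against 6.82%). Leaving out Il12a and Il12b, 9 of the other 47 members lay higher at that p (19.1%) and 8 did so without overlap (17.0%). The groups did not overlap for 11 members (22.4%, against 23.5% of all genes), 9 higher (18.4%, against 11.5% of all genes) and 2 lower (4.08%, against 12.0%). By edgeR's quasi-likelihood test 0 members passed and 10 had an unadjusted p under 0.05, where the share over all genes was 15.2%. Of those 10, 8 lay higher (16.3%, against 8.68%) and 2 lower (4.08%, against 6.56%). DESeq2 called 4 of the 47 members to which it gave an adjusted p, or 8.51%, against 4.78% of all genes, and those were Il1r2, Il27, Il3ra and Il10ra. All 4 were higher, where 2.85% of all genes were, and 0 were lower, where 1.93% were.

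**Figure D1:**
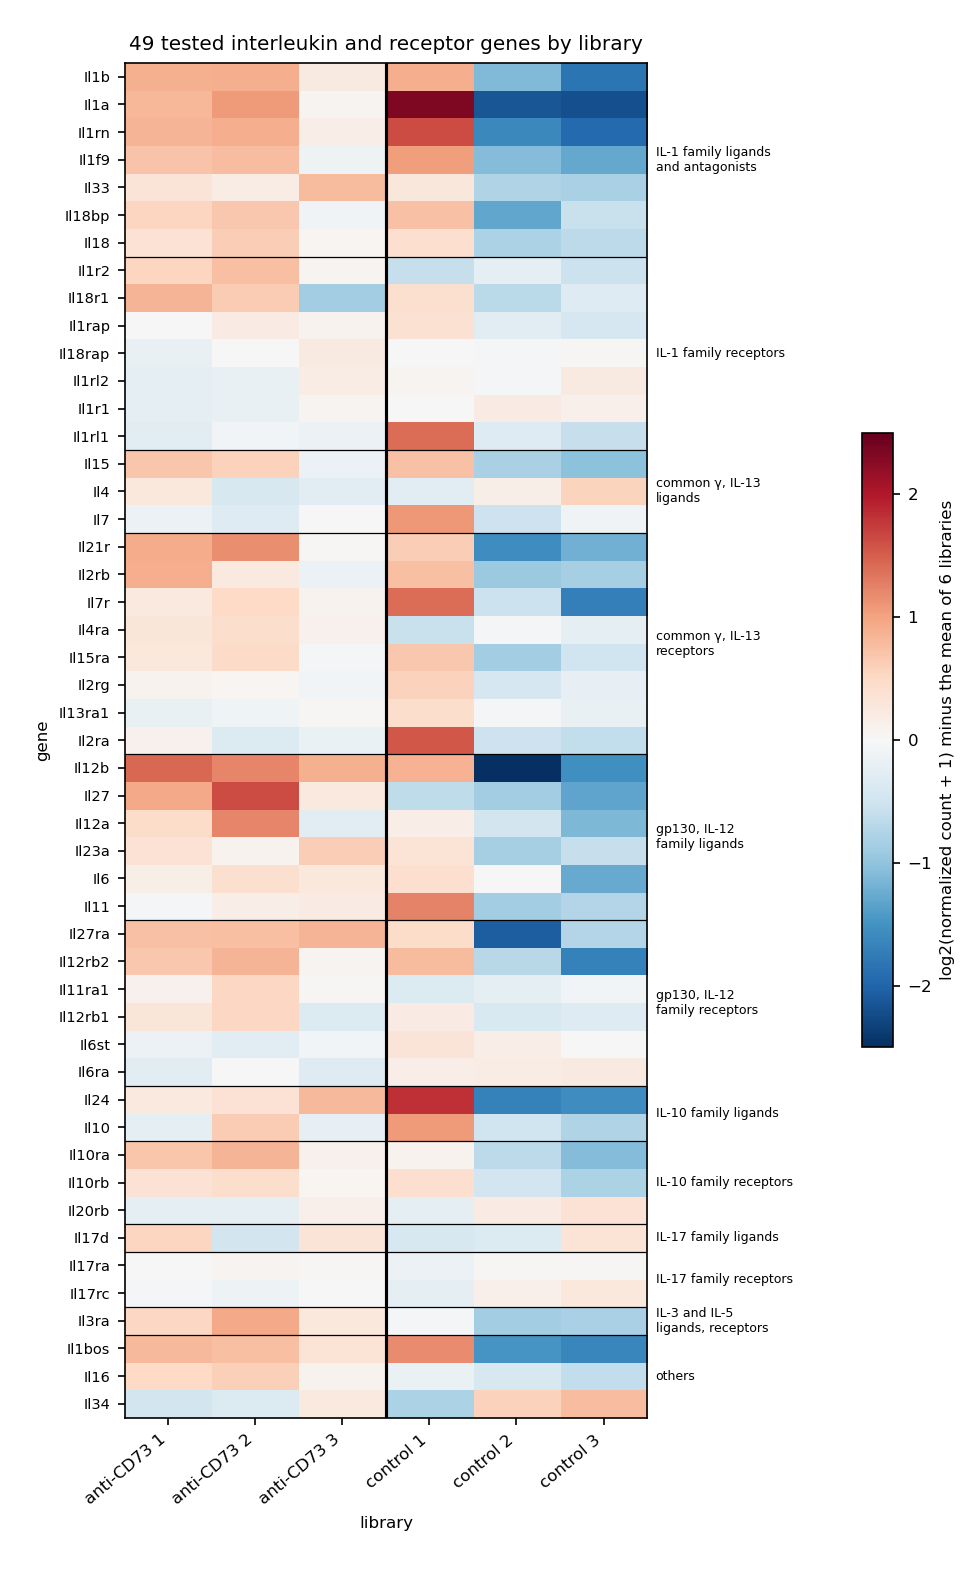
Rows are the 49 tested members by family, columns the libraries with anti-CD73 left of control, and colour is log2(normalized count + 1) minus the mean of the 6 libraries. Many rows are blue in control replicates 2 and 3 alone, with control replicate 1 as red as the anti-CD73 libraries, while Il1r2, Il27 and Il16 are low in all 3 controls.

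The pair of transcripts that set IL-1 signalling at the ligand level, Il1b and Il1rn, ranged more widely among the controls than among the anti-CD73 libraries. Il1b encodes the main secreted agonist of the IL-1 receptor, and Il1rn the antagonist that occupies it. Both lie on chromosome 2 of GRCm38.p6, the RefSeq assembly of the mm10 build, Il1b at 129364569 to 129371164 and Il1rn at 24336860 to 24351491. The 250 bases before the start of each gene are shown because the 2 transcripts went up and down together across the libraries. Capitals mark the matches found on either strand to any of 5 motifs: GGGA, any 4 bases and CC for NF-kB, TTGCNNAA for C/EBP, TGANTCA for AP-1, TGACGTCA for the cyclic AMP response element and TATAAA for the TATA box. For Il1rn the most upstream of 3 listed starts was taken, and the annotated span of Il1b takes in the 25 bases of the window nearest to its listed start. The sequences are from RefSeq and run 5′ to 3′ on the coding strand.
Il1b, chr2:129371140-129371389, minus strand: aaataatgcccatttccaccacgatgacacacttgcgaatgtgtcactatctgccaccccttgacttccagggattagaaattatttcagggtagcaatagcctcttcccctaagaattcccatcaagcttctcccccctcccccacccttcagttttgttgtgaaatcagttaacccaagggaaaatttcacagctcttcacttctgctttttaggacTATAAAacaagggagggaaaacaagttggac
Il1rn, chr2:24336610-24336859, plus strand: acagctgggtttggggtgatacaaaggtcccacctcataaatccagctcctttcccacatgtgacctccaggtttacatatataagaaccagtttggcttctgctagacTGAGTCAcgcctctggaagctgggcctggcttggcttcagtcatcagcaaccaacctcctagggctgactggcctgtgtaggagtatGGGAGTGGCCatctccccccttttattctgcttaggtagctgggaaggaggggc
In the Il1b window the match is a TATA box 31 bases before the start. The Il1rn window holds an AP-1 match 141 bases and an NF-kB match 54 bases before the start. Of 32851 promoter windows of the same length, 12.4% hold the TATA box letters, 6.75% the AP-1 letters, 17.6% the NF-kB letters, 9.56% the C/EBP letters and 1.55% the cyclic AMP element, with no motif containing another. A match describes the letters and is not a binding site.

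Il1b had 7265, 7310 and 4585 normalized counts in anti-CD73 replicates 1, 2 and 3, against 7385, 1818 and 1110 in control replicates 1, 2 and 3. Control replicate 1 was the highest of the 6 libraries, and the other controls lay below every anti-CD73 library. The log2 fold change was 1.34 with a standard error of 0.63 (limma, unadjusted p = 0.0683, adjusted p = 0.357). With that library left out it was 2.14 (adjusted p = 0.00168).

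Il1rn had 2480, 2573 and 1555 normalized counts after anti-CD73, against 4245, 452 and 359 in controls. Its log2 fold change was 1.28 (SE 0.86, adjusted p = 0.514), and 2.41 without control replicate 1 (adjusted p = 0.000949). The order of the libraries was close to that of Il1b, with control replicate 1 above all others. Il1a, the second agonist, which stays largely cell-bound, had 86.5, 102 and 50.4 normalized counts after anti-CD73, against 247, 10.1 and 9.73 in controls. This gene shows how far 1 library carried a mean: its log2 fold change was 1.32 (SE 1.14, adjusted p = 0.618), while the plain mean was lower after anti-CD73 (79.5 ± 26.3) than in controls (88.9 ± 137; SD, n = 3 each). The log2 fold change of Il1a was 2.82 without control replicate 1 (adjusted p = 0.00203), and edgeR and DESeq2 on all 6 libraries put it at -0.13 and -0.16. Il1bos, the antisense transcript, overlaps Il1b, and as the counting is not known to use strand its level cannot be told apart from reads of Il1b. It had 20.6 to 28.8 normalized counts after anti-CD73, and 37.6, 5.07 and 4.49 in the controls.

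The other ligands of this family followed a similar order among the controls. Il33, an alarmin released by damaged stromal and epithelial cells, had 563, 509 and 775 normalized counts after anti-CD73, against 550, 267 and 256 in controls. Its means were 616 ± 141 and 358 ± 167 (SD, n = 3 each), with a log2 fold change of 0.85 (SE 0.31, unadjusted p = 0.0288, adjusted p = 0.268). The groups overlapped through control replicate 1, which lay above anti-CD73 replicate 2. Il18, the IL-1 relative that drives interferon gamma production, had 241, 288 and 195 after anti-CD73, against 252, 109 and 119 in controls, a log2 fold change of 0.68 (SE 0.33, adjusted p = 0.372). Il18bp, whose product neutralizes IL-18, had 338, 372 and 221 after anti-CD73, against 389, 95.0 and 159 in controls, a log2 fold change of 0.74 (SE 0.48, adjusted p = 0.501). Il1f9, the older symbol of IL-36 gamma, ranged from 163 to 305 after anti-CD73 and from 73.3 to 370 in controls. The values without control replicate 1 were 1.21 for Il33, 1.06 for Il18, 1.29 for Il18bp and 1.63 for Il1f9. All 7 tested members of the ligand and antagonist group had log2 fold changes above 0, with a median of 0.89. Without control replicate 1 all 7 passed (limma, adjusted p under 0.05), where the share of all genes that passed as higher was 11.9%. Of the 7, Il1a had a mean under 10 in the remaining controls and entered that test through its anti-CD73 values.

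Among the receptors of the IL-1 family, the decoy lay higher after anti-CD73 and the signalling chain beside it did not. Il1r2 had 2037, 2370 and 1486 normalized counts in anti-CD73 replicates 1, 2 and 3, against 942, 1195 and 974 in control replicates 1, 2 and 3. Every anti-CD73 library lay above every control, and control replicate 1 was the lowest control. The means were 1964 ± 446 and 1037 ± 138 (SD, n = 3 each), a fold of 1.89, and the log2 fold change was 0.90 (SE 0.19, unadjusted p = 0.00182, adjusted p = 0.151). Without control replicate 1 the log2 fold change was 0.84 (adjusted p = 0.0124), and by DESeq2 on all libraries the adjusted p was 0.00224. The 10 neutrophil markers also summed higher in every anti-CD73 library than in any control, and control replicate 1 had the lowest sum, 6036. S100a8 and S100a9 were the largest parts of that sum. S100a8 overlapped between the groups, while S100a9 had 3414 to 6076 after anti-CD73 and 2372 to 2909 in controls. Cxcr2 (664 to 900, against 257 to 361) and Csf3r (1262 to 2202, against 382 to 810) did not overlap either. Mmp9 ran from 390 to 815 after anti-CD73 and from 242 to 351 in controls. Ly6g was highest in control replicate 1 (253, against 118 to 153 after anti-CD73) and Ngp in control replicate 2 (179, against 39.1 to 148). Of the 9 tested markers, 7 had log2 fold changes above 0 and 2 below. At an unadjusted p under 0.05 in limma, 4 lay higher, where 8.69% of all genes did, and 0 lower, where 6.82% did. The part of neutrophils in the level of Il1r2 was not tested.

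Il1r1, the signalling receptor, lies next along chromosome 1 and had 1084, 1127 and 1345 normalized counts after anti-CD73, against 1294, 1474 and 1408 in controls. Its log2 fold change was -0.24 (SE 0.13, unadjusted p = 0.0995, adjusted p = 0.413), and the groups overlapped through anti-CD73 replicate 3. The 250 bases before the starts of this pair are shown for comparison, again with the 5 motifs in capitals, and for Il1r1 the more upstream of 2 listed starts was taken. The annotated spans of both genes, 40084692 to 40125230 for Il1r2 and 40222480 to 40316201 for Il1r1, begin upstream of these starts.
Il1r2, chr1:40085843-40086092, plus strand: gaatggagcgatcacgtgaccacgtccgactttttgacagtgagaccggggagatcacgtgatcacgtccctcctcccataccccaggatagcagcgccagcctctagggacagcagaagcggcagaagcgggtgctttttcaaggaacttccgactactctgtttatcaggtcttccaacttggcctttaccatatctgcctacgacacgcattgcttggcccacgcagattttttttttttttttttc
Il1r1, chr1:40224830-40225079, plus strand: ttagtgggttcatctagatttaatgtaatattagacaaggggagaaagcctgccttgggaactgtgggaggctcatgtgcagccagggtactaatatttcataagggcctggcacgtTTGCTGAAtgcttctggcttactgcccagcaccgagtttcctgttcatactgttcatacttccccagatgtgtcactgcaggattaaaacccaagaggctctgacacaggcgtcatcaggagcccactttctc
The Il1r2 window holds none of the 5 letter patterns, and the Il1r1 window holds 1 C/EBP match, 133 bases before the start. Neither holds the TATA box letters that the Il1b window has.

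The remaining receptor chains of this family overlapped between the groups. Il1rap, the accessory chain shared by the IL-1, IL-33 and IL-36 receptors, had 2096, 2402 and 2217 normalized counts after anti-CD73, against 2690, 1717 and 1542 in controls (log2 fold change 0.22, SE 0.21, adjusted p = 0.653). With control replicate 1 left out it passed as higher, at 0.46 (adjusted p = 0.00925). Il1rl1, the IL-33 receptor ST2, had 179, 206 and 195 after anti-CD73, against 575, 174 and 146 in controls (log2 fold change -0.34, SE 0.48, adjusted p = 0.772). Here too control replicate 1 lay far from the rest, and without it the sign turned, to a log2 fold change of 0.28 (adjusted p = 0.216). Il18rap, the accessory chain of the IL-18 receptor, had 1109, 1271 and 1475 after anti-CD73 and 1260, 1239 and 1291 in controls, a log2 fold change of 0.015 (SE 0.13, adjusted p = 0.971). Il1rl2, the IL-36 receptor, had -0.16 (SE 0.17), and Il18r1, the ligand-binding chain for IL-18, had 0.40 (SE 0.52).

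Ratios within a library do not depend on how libraries were scaled. They are not corrected for transcript length, so a ratio can be compared between libraries and not with 1. The Il1r2 to Il1r1 ratio was 1.88, 2.10 and 1.10 in anti-CD73 replicates 1, 2 and 3, against 0.728, 0.811 and 0.692 in control replicates 1, 2 and 3. All 3 controls lay in a narrow range below every anti-CD73 library, control replicate 1 included. The mean log2 ratio was higher by 1.14 after anti-CD73 (exact two-sided permutation test, p = 0.1, the smallest value that 3 against 3 libraries can give; 0.3 adjusted over the 3 ratios).

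The Il1rn to Il1b ratio was 0.341, 0.352 and 0.339 after anti-CD73, against 0.575, 0.249 and 0.324 in controls. Antagonist and agonist thus kept nearly the same proportion in the 3 anti-CD73 libraries, and the controls spread to both sides (difference of mean log2 ratios -0.063, exact two-sided permutation test, p = 1, adjusted p = 1). The Il18bp to Il18 ratio was 1.40, 1.29 and 1.13 after anti-CD73, against 1.54, 0.872 and 1.33 in controls. The groups overlapped, with a difference of 0.063 (exact two-sided permutation test, p = 0.9, adjusted p = 1).

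**Figure D2:**
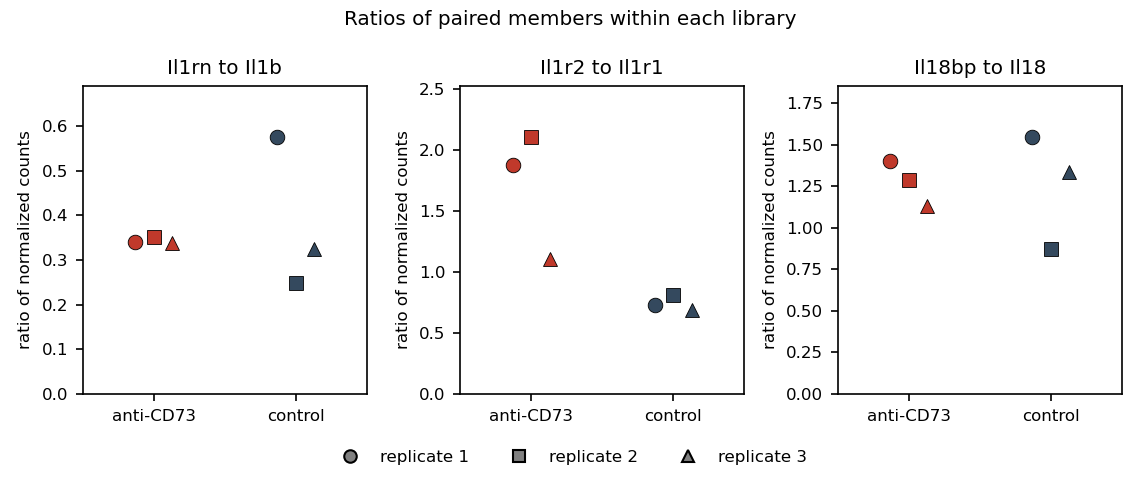
Each point is 1 library, the vertical axis is the ratio of normalized counts of the 2 named genes starting at 0, and anti-CD73 is left of control. The Il1r2 to Il1r1 ratio runs from 1.10 to 2.10 after anti-CD73 and from 0.692 to 0.811 in controls, while the other ratios overlap.

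In the IL-12 family, the groups stood apart for a subunit of IL-27. Il27, the p28 subunit that pairs with EBI3 to form IL-27, had 47.4, 76.2 and 28.8 normalized counts after anti-CD73, against 15.2, 12.7 and 8.98 in controls. The groups did not overlap. The control values rest on 15, 10 and 12 reads (95% Poisson intervals 8.40 to 24.7, 4.80 to 18.4 and 6.20 to 21.0 reads, which cover counting error only) and the anti-CD73 values on 51, 72 and 28. The means were 50.8 ± 23.9 and 12.3 ± 3.14 (SD, n = 3 each), a fold of 4.13, and the log2 fold change was 1.88 (SE 0.41, unadjusted p = 0.00219, adjusted p = 0.157). With control replicate 1 left out it was 2.04 (adjusted p = 0.0108), and DESeq2 on all libraries gave an adjusted p of 0.00538. The span of Il27 overlaps that of Apobr, so reads of the 2 genes may be shared. The same limit holds for other members, as 21 tested members have a span that overlaps another gene. Il11, Il11ra1, Il12rb2, Il18 and Il27ra overlap protein-coding genes, and Il1r2 overlaps a long noncoding RNA gene.

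The partner subunit of IL-27 and its specific receptor chain lay the same way. Ebi3, not a member by name and looked up after the values of Il27 were seen, had 64.2, 70.9 and 52.4 normalized counts after anti-CD73, against 34.5, 38.0 and 32.2 in controls (log2 fold change 0.82, SE 0.23, adjusted p = 0.183). Il27ra, the specific receptor chain, had 40.9, 41.3 and 44.2 after anti-CD73, against 33.5, 5.07 and 14.2 in controls. Its anti-CD73 values were close together and its controls wide apart, without overlap (log2 fold change 1.55, SE 0.59, unadjusted p = 0.0317, adjusted p = 0.278). Its log2 fold change without control replicate 1 was 2.17 (adjusted p = 0.00806). The control values of Il27ra rest on 33, 4 and 19 reads, and its span overlaps that of Palm3. The gp130 chain that IL-27 also uses, Il6st, went the other way, lower without overlap.

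Il12b, the p40 subunit shared by IL-12 and IL-23, rested on 20, 15 and 12 reads after anti-CD73 and on 12, 0 and 2 reads in controls. In normalized counts these were 18.6, 15.9 and 12.3 after anti-CD73, against 12.2, 0 and 1.5 in controls, so that the lowest anti-CD73 library and control replicate 1 were all but equal. The fitted log2 fold change of 2.36 (SE 0.90, unadjusted p = 0.0321, adjusted p = 0.279) depends on the added count of 1, and without control replicate 1 the gene's mean fell below the minimum for testing. Il23a, the p19 subunit of IL-23, had 500, 410 and 593 normalized counts after anti-CD73, against 493, 217 and 259 in controls (log2 fold change 0.71, SE 0.31, adjusted p = 0.327), and passed at 1.06 once control replicate 1 was left out (adjusted p = 0.00389). Il12a, the p35 subunit of IL-12, had 10.3 to 30.7 after anti-CD73 and 5.24 to 14.2 in controls, and Il12rb2, the signalling chain for IL-12, 32.9 to 57.2 and 8.98 to 54.8. Il12rb2 passed without control replicate 1, with a log2 fold change of 1.72 beside 1.06 in all libraries (adjusted p = 0.0157).

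Both chains of the IL-6 receptor were the only members that lay lower at an unadjusted p under 0.05. Il6ra, which binds IL-6, had 890, 1074 and 858 normalized counts in anti-CD73 replicates 1, 2 and 3, against 1198, 1211 and 1239 in control replicates 1, 2 and 3. Its 3 controls, replicate 1 included, were within a narrow range above every anti-CD73 library. The means were 940 ± 117 and 1216 ± 21.0 (SD, n = 3 each), a fold of 0.773, with a log2 fold change of -0.38 (SE 0.12, unadjusted p = 0.0164, adjusted p = 0.22).

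Il6st, which encodes gp130, the signal-transducing chain for IL-6, IL-11 and IL-27, had 1754, 1593 and 1844 normalized counts after anti-CD73, against 2403, 2150 and 1937 in controls. The groups did not overlap, and the log2 fold change was -0.32 (SE 0.12, unadjusted p = 0.0338, adjusted p = 0.284). Il6ra passed without control replicate 1 (-0.39, adjusted p = 0.0343) and Il6st did not (-0.24, adjusted p = 0.0919). The ligand Il6 had 90.2, 108 and 98.7 after anti-CD73, against 110, 82.4 and 33.7 in controls (log2 fold change 0.54, SE 0.41, adjusted p = 0.566). Il11, a gp130 cytokine of stromal and tumour cells, had 404, 464 and 477 after anti-CD73, against 976, 226 and 245 in controls. Its log2 fold change was 0.24 (SE 0.52, adjusted p = 0.858), but -0.081 by edgeR and -0.10 by DESeq2, and 0.92 without control replicate 1 (adjusted p = 0.00272). Il11ra1, its receptor, had 53.5 to 76.2 after anti-CD73 and 41.6 to 50.1 in controls, without overlap. The close copy Il11ra2 is listed with no read, and reads of the pair may have been given to one of them.

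**Figure D3:**
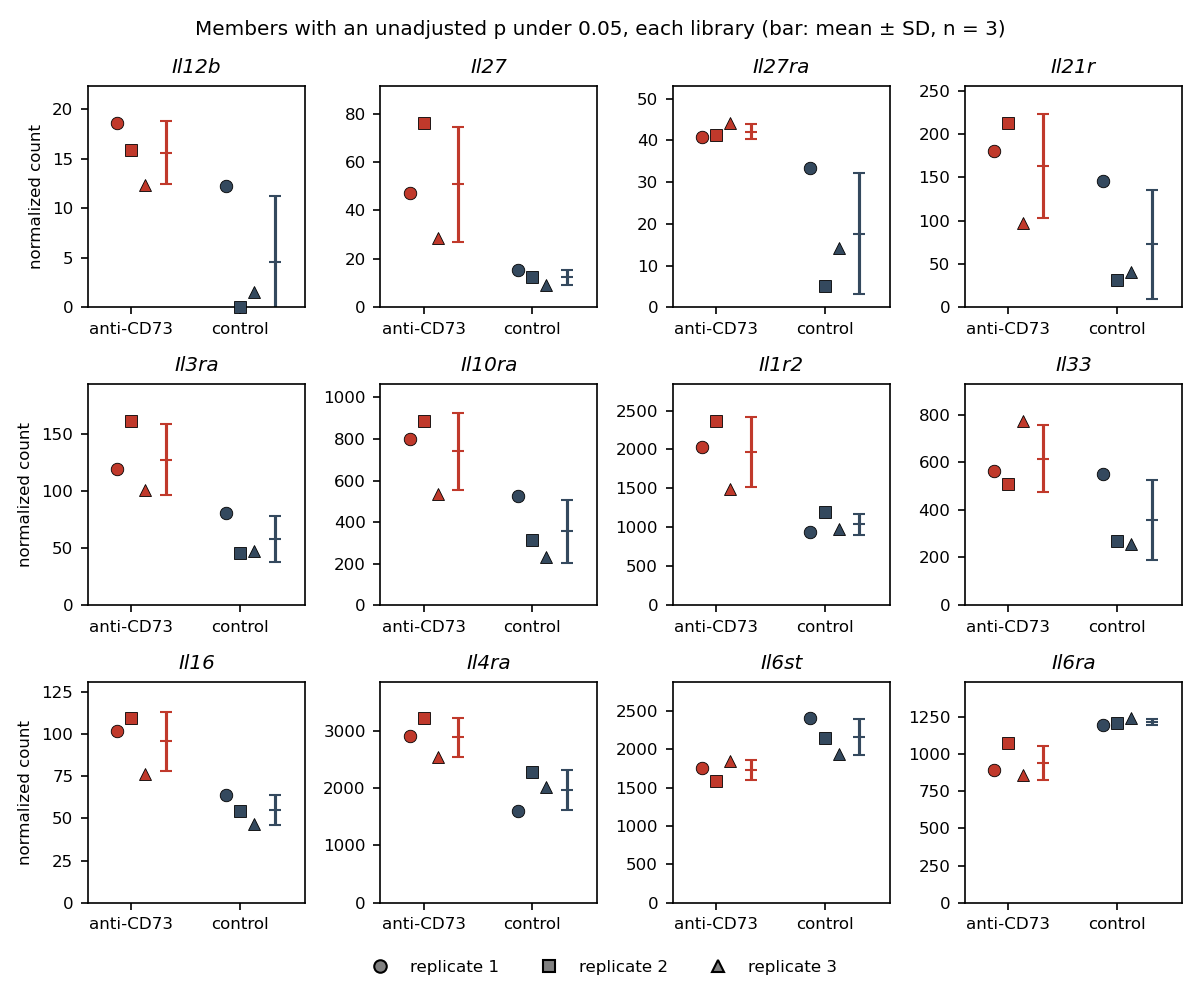
Each panel is 1 of the 12 members with an unadjusted p under 0.05, points are libraries, the vertical axis is the normalized count from 0, anti-CD73 is left of control and bars give mean ± SD (n = 3), clipped at 0 for Il12b. Il6st and Il6ra lie lower after anti-CD73, the other 10 higher, and Il33 and Il21r overlap through control replicate 1.

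In the common gamma chain family, receptors for IL-4 and IL-21 lay higher. Il4ra, the chain shared by the IL-4 and IL-13 receptors, had 2901, 3213 and 2539 normalized counts after anti-CD73, against 1600, 2288 and 2025 in controls. The groups did not overlap and control replicate 1 was the lowest library (means 2884 ± 338 and 1971 ± 347, SD, n = 3 each). The log2 fold change was 0.56 (SE 0.16, unadjusted p = 0.00977, adjusted p = 0.193), and 0.42 without control replicate 1 (adjusted p = 0.0265). Il21r had 180, 213 and 96.7 after anti-CD73, against 145, 31.7 and 40.4 in controls, and overlapped through control replicate 1 (log2 fold change 1.42, SE 0.58, unadjusted p = 0.0416, adjusted p = 0.302). Once that library was left out, Il21r passed at 2.08 (adjusted p = 0.00376).

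The receptors that T cells and natural killer cells use for IL-2, IL-7 and IL-15 followed the controls' split. Il2rb, the beta chain for IL-2 and IL-15, had 603, 379 and 287 normalized counts after anti-CD73, against 538, 169 and 179 in controls (log2 fold change 0.67, SE 0.47, adjusted p = 0.539). Il7r had 475, 566 and 425 after anti-CD73, against 1053, 276 and 122 in controls, and its means were almost equal, 489 ± 71.9 and 484 ± 499 (SD, n = 3 each; log2 fold change 0.56, SE 0.68, adjusted p = 0.732). Control replicate 1 alone set the control mean of Il7r. Il15ra, which presents IL-15 to neighbouring cells, had 664, 777 and 535 after anti-CD73, against 893, 303 and 394 in controls (log2 fold change 0.46, SE 0.38, adjusted p = 0.6). Il2rg, the common gamma chain, had 2379, 2304 and 2115 after anti-CD73, against 3309, 1660 and 1928 in controls (log2 fold change 0.044, SE 0.24, adjusted p = 0.95). Il2ra, the high-affinity chain for IL-2, had 51.1, 37.1 and 42.2 after anti-CD73, against 141, 32.9 and 30.7 in controls, and Il13ra1 ranged from 1771 to 2052 and from 1772 to 2728. The T cell receptor and CD8 genes were likewise highest among controls in replicate 1, 643 against 155 and 219, and their part in these values was not tested. Without control replicate 1, 6 of the 8 tested receptor chains of this family passed as higher, where 11.9% of all genes did, among them Il2rb (1.21, adjusted p = 0.0128), Il7r (1.40, adjusted p = 0.0113), Il15ra (0.91, adjusted p = 0.00747) and Il2rg (0.34, adjusted p = 0.032).

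The ligands of this family overlapped between the groups. Il15, a survival factor for CD8+ T cells and natural killer cells, had 236, 218 and 132 normalized counts after anti-CD73, against 242, 82.4 and 71.1 in controls (log2 fold change 0.75, SE 0.47, adjusted p = 0.488). The overlap came from control replicate 1, without which Il15 passed at 1.30 (adjusted p = 0.00849). Il7 had 21.4, 19.1 and 23.7 after anti-CD73, against 51.8, 16.5 and 22.5 in controls (log2 fold change -0.32, SE 0.43, adjusted p = 0.762). Il4 had 8.47 to 13.9 after anti-CD73 and 9.14 to 17.2 in controls, close to the minimum for testing.

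For IL-10, the groups separated for the ligand-binding receptor chain and overlapped for the cytokine. Il10ra, the ligand-binding chain found on leukocytes, had 798, 888 and 535 normalized counts after anti-CD73, against 525, 313 and 231 in controls. The groups did not overlap, although anti-CD73 replicate 3 and control replicate 1 lay close. The means were 740 ± 184 and 356 ± 152 (SD, n = 3 each), a fold of 2.08, with a log2 fold change of 1.10 (SE 0.32, unadjusted p = 0.00981, adjusted p = 0.193). This became 1.42 without control replicate 1 (adjusted p = 0.00358), and DESeq2 on all libraries gave an adjusted p of 0.0415. The 14 macrophage markers also summed higher in anti-CD73 replicates 1 and 2 than in any control, and their part in the level of Il10ra was not tested.

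Il10rb, the second chain, which also serves IL-22 and other relatives, had 747, 787 and 595 normalized counts after anti-CD73, against 774, 412 and 335 in controls (log2 fold change 0.57, SE 0.30, adjusted p = 0.409), and passed at 0.92 without control replicate 1 (adjusted p = 0.00404). Il10 itself had 26.0, 48.7 and 26.7 after anti-CD73, against 66.0, 21.5 and 18.0 in controls. Its log2 fold change was 0.13 (SE 0.52, adjusted p = 0.93), and the sign turned under several of the settings tried. Il24, a relative of IL-10 encoded near it, had 158, 173 and 237 after anti-CD73, against 478, 40.5 and 44.9 in controls, so that its means were 189 ± 41.7 and 188 ± 251 (SD, n = 3 each). Its log2 fold change of 0.95 became 2.10 without control replicate 1, and then passed (adjusted p = 0.00145). Il20rb, a receptor chain for IL-24, lay between 72.0 and 92.5 after anti-CD73 and between 72.1 and 109 in controls.

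The IL-3 receptor alpha chain was among the members whose groups stood clear of each other. Il3ra, which pairs with the common beta chain on myeloid cells and basophils, had 120, 162 and 101 normalized counts after anti-CD73, against 81.2, 45.6 and 47.1 in controls. Its means were 128 ± 31.3 and 58.0 ± 20.1 (SD, n = 3 each), a fold of 2.20, with a log2 fold change of 1.15 (SE 0.30, unadjusted p = 0.00542, adjusted p = 0.177). Leaving out control replicate 1 gave 1.41 (adjusted p = 0.00455), and DESeq2 gave an adjusted p of 0.0266 with all libraries. The ligand gene Il3 had 1 read in all.

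Il16, a chemoattractant for CD4+ cells that belongs to none of the cytokine families above, had 101, 109 and 76.1 normalized counts after anti-CD73, against 64.0, 54.5 and 46.4 in controls. The groups did not overlap (log2 fold change 0.78, SE 0.23, unadjusted p = 0.0108, adjusted p = 0.194). Il34, a ligand of the macrophage growth factor receptor CSF1R, had 75.3, 81.5 and 122 after anti-CD73, against 59.9, 156 and 178 in controls (log2 fold change -0.38, SE 0.42, adjusted p = 0.705). Control replicate 1 was the lowest library for Il34, and without it the log2 fold change was -0.87 (adjusted p = 0.0265). With Il6ra, Il34 was 1 of the 2 members that then passed as lower.

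Of the IL-17 receptor chains 2 were tested, and of these Il17ra varied little. Il17rb, Il17rd and Il17re had reads but a mean under 10. Il17ra, the chain shared by the IL-17 cytokines, had 1853, 1946 and 1895 normalized counts after anti-CD73, against 1666, 1907 and 1885 in controls (log2 fold change 0.063, SE 0.11, adjusted p = 0.809), and Il17rc, its partner, 707 to 772 and 649 to 917. In contrast, Il17a and Il25 had no read in any library, and Il17f and Il17c had 28 and 27 reads over all 6. Il17d was tested, at 11.6 to 24.2 after anti-CD73 and 12.2 to 21.0 in controls.

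Many members had few reads or none. Il2, Il5, Il13, Il21 and Il22 had 3, 5, 1, 6 and 4 reads over the 6 libraries, and Il9 had none. The 8 members with no read were Il9, Il17a, Il20, Il20ra, Il25, Il1f10, Il1rapl2 and Il11ra2. A count of 0 allows up to 3 reads (a one-sided 95% limit, which covers counting error only), which is 2.25 to 3.80 normalized counts depending on the library. Of the 26 members with reads but a mean under 10, 18 had 10 reads or fewer over all libraries. The others included Il13ra2, the decoy receptor for IL-13, with 11, 14 and 1 reads after anti-CD73 and 2, 1 and 1 in controls, and Il31ra, with 2, 16 and 2 reads after anti-CD73 and 4, 1 and 3 in controls. In Il31ra 1 library held most reads. In a limma fit with no minimum, 0 of these 26 had an adjusted p under 0.05 and 1, Il17rb, named after its value was seen, had an unadjusted p under 0.05, against 12.1% of all genes with a read.

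The split among the controls ran through much of the family. In 20 of the 49 tested members (40.8%, against 30.7% of all genes), control replicate 1 held the highest of the 6 values. Anti-CD73 replicates 1, 2 and 3 held it in 4, 14 and 4 members (8.16, 28.6 and 8.16%, against 8.17, 17.2 and 10.1% of all genes), and control replicates 2 and 3 in 1 and 6 (2.04 and 12.2%, against 13.2 and 20.6%). The members lay above the mean of the other controls in control replicate 1 by a median of 1.04 on the log2 scale, where the median over all tested genes was 0.021. Leaving out a control in which members lay above the other controls raises their fold changes by construction. On leaving out any other library, limma called 0 members and 0% of all genes. Without control replicate 1, limma called 29 of 48 tested members, or 60.4%, against 22.1% of all genes. Of these, 27 were higher (56.2%, against 11.9%) and 2 lower (4.17%, against 10.2%). Among the 27, Il1a, Il1bos and Il27ra had a mean under 10 in the remaining controls and entered the test through their anti-CD73 values. Leaving out these and Il12a, 24 of 44 members were higher (54.5%). In the same fit 8 of 14 macrophage, 5 of 11 T cell receptor and CD8, 4 of 9 neutrophil and 3 of 4 endothelial markers were called higher. So were 2 of 7 dendritic cell, 2 of 6 natural killer cell, 2 of 5 mast cell and basophil and 2 of 10 fibroblast markers. The same held for 1 of 5 CD4 and regulatory T cell markers and 1 of 2 B cell markers. Called lower were 1 macrophage, 1 B cell and 1 epithelial marker and 5 of 5 erythroid genes. The part of these cells in the calls was not tested. Without control replicate 1, edgeR and DESeq2 called the same 29 members, where the shares over all genes were 22.0% and 21.8%. The shares called higher were 12.3% in both tools, and those called lower 9.68% and 9.5%. At an unadjusted p under 0.05, limma had 34 of the 48 members (70.8%, against 36.2% of all genes), 29 higher (60.4%, against 18.3%) and 5 lower (10.4%, against 18.0%).

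**Figure D4:**
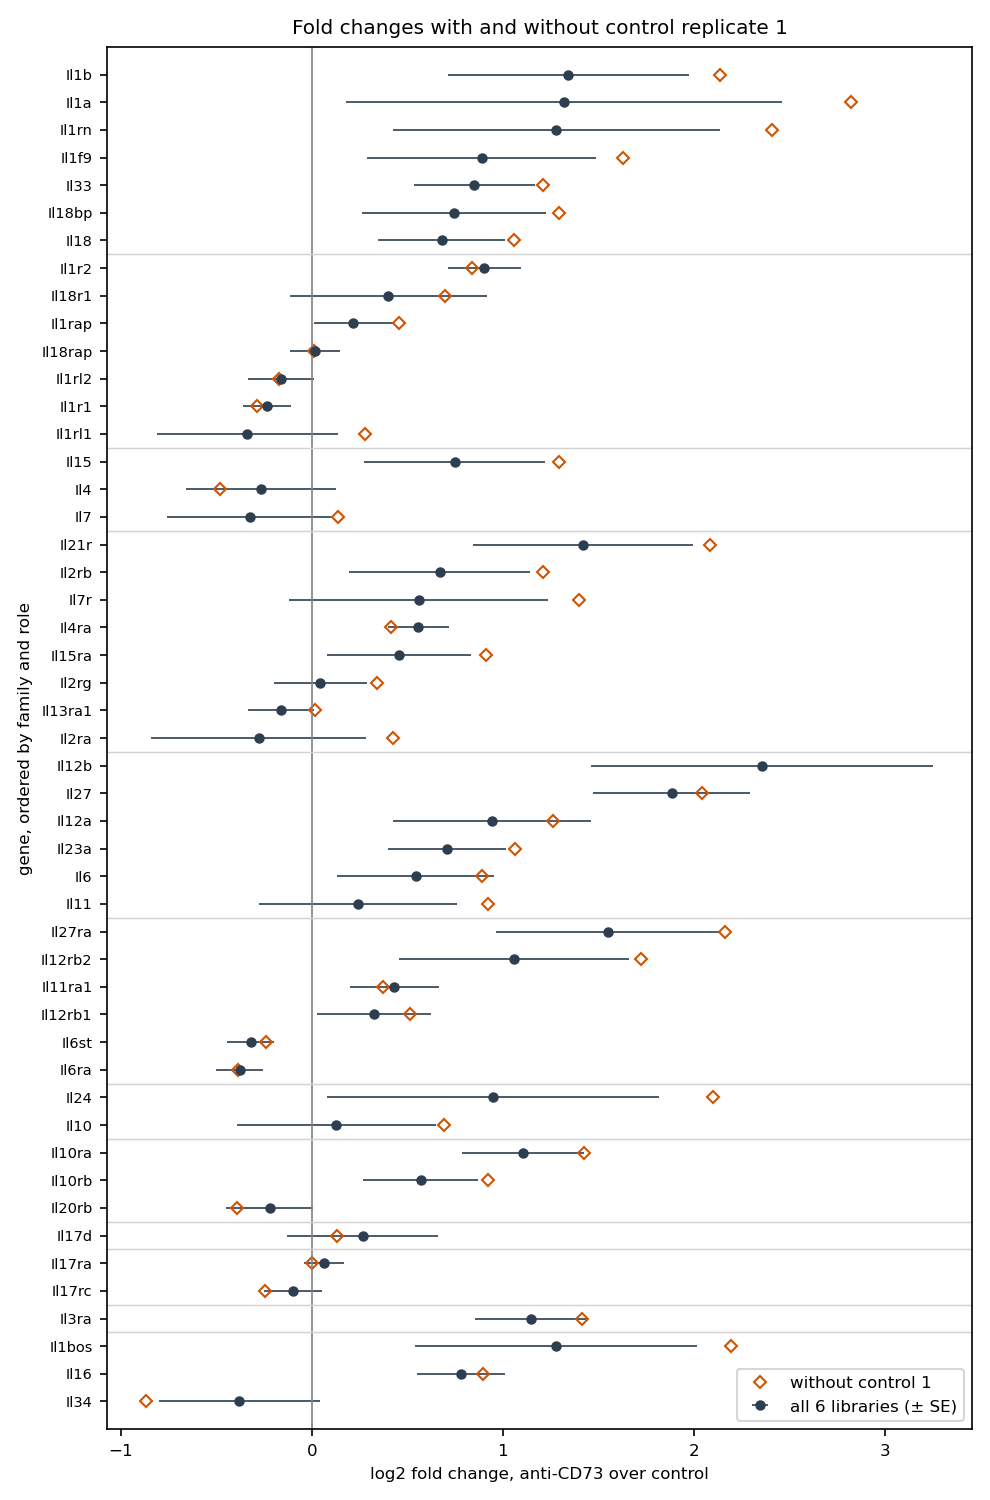
Filled points are log2 fold changes (anti-CD73 over control) with all 6 libraries, bars are ± SE, and open diamonds are the values without control replicate 1, for the 49 tested members by family (Il12b has no diamond, as its mean was then under 10). Il1r2, Il6ra and Il17ra barely move, whereas the diamond of Il1a lies at 2.82 and its filled point at 1.32, and Il1rl1, Il7, Il13ra1 and Il2ra change sign.

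Genes that carry interleukin signals but lack the Il name were read from lists. Of 15 tested partner ligands and receptors, 13 lay higher and 2 lower. Their median was 0.52 on the log2 scale, with 0 past the adjusted threshold and 4 at an unadjusted p under 0.05 in limma, where the share over all genes was 15.5%. Csf2ra, the GM-CSF receptor alpha chain, had 951, 1080 and 612 normalized counts after anti-CD73, against 381, 379 and 236 in controls (log2 fold change 1.40, SE 0.27, adjusted p = 0.141). Crlf2, the receptor for TSLP, had 1.11 (SE 0.27, adjusted p = 0.166), and Clcf1, a gp130 cytokine, had -0.53 (SE 0.14, adjusted p = 0.177). Of 17 JAK and STAT genes, 13 lay higher with a median of 0.39, and 0 passed the adjusted threshold. At an unadjusted p under 0.05 in limma, 6 lay higher, where 8.69% of all genes did, and 1 lower, where 6.82% did. Those with the smallest p were the phosphatase gene Ptpn6 (0.97, SE 0.16), the kinase gene Tyk2 (0.78, SE 0.14) and Stat5b (0.47, SE 0.12), with adjusted p of 0.141, 0.141 and 0.178. The 20 genes of IL-1 signalling and the inflammasome were evenly spread, with 11 higher, a median of 0.14 and 0 past the adjusted threshold. At an unadjusted p under 0.05, 3 lay higher, where 8.69% of all genes did, and 0 lower, where 6.82% did. Over both directions that was near the 15.5% of all genes. Those 3 were Irak3, an inhibitor of MyD88 signalling (0.88, SE 0.25), Irak2 (0.73, SE 0.23) and the inflammasome adaptor gene Pycard (0.85, SE 0.29). Without control replicate 1, 9 partner genes, 8 JAK and STAT genes and 6 genes of the IL-1 list passed as higher in limma, where 11.9% of all genes did, and 1 partner gene as lower, where 10.2% did.

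**Figure D5:**
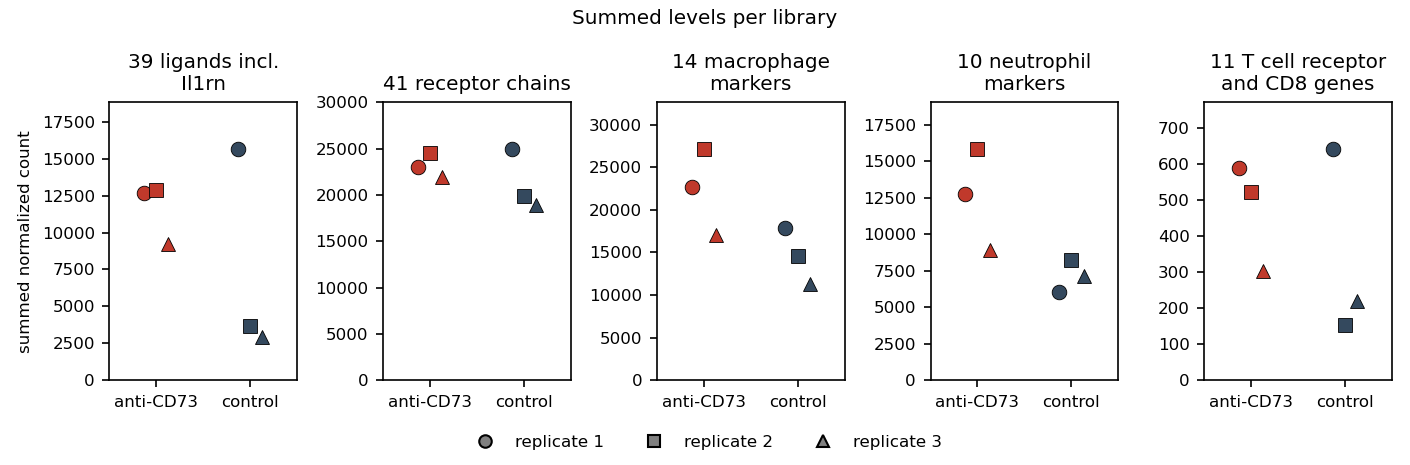
Points are summed normalized counts per library from 0, anti-CD73 left of control, for the ligands (39, including Il1rn), the receptor chains (41) and 3 marker lists. Ligands, receptors and T cell genes are low in control replicates 2 and 3 and high in control replicate 1, whereas for neutrophil markers all 3 controls, from 6036 to 8253, lie below the anti-CD73 libraries.

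Summed over all members, interleukin and receptor genes took 0.294, 0.307 and 0.255% of reads in anti-CD73 replicates 1, 2 and 3, against 0.316, 0.183 and 0.172% in control replicates 1, 2 and 3. The ligands alone summed to 12686, 12869 and 9206 normalized counts after anti-CD73, against 15679, 3697 and 2914 in controls, and the receptor chains to 22998, 24521 and 21951, against 25016, 19870 and 18963. Among marker lists, dendritic cell genes summed to 702 to 1107 after anti-CD73 and 365 to 883 in controls, mast cell and basophil genes to 104 to 259 and 55.4 to 328, and B cell genes to 911 to 928 and 593 to 1029. Natural killer cell genes summed to 397 to 665 and 365 to 691, and CD4 and regulatory T cell genes to 337 to 501 and 309 to 644. Fibroblast genes summed to 5585 to 6500 and 4341 to 5345, endothelial genes to 564 to 872 and 213 to 776, epithelial genes to 2115 to 2701 and 1962 to 4663, and erythroid genes to 8412 to 30978 and 7845 to 58716. For erythroid genes the low control value was control replicate 1, and the other controls lay at 55529 and 58716. Of the T cell receptor and CD8, macrophage and neutrophil markers, none was at 0 in all libraries. The part of these cells in the levels of the members was not tested.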

How the data were processed

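RNA was extracted with Trizol and a Direct-zol kit and made into libraries with a NEBNext Ultra II kit, per the labels' protocols. The submitters' processing notes name Bowtie 0.12.7 and mm10, without a role. The authors deposited a signal table of counts per gene divided by DESeq size factors, per the labels. The counter, annotation and strandedness were not given in the sources used here. Whole reads were recovered within 0.01 for 100% of values, giving 10180624 to 17161679 reads per library. Libraries 1, 2 and 3 of each group were compared, and the other 19 of 25 samples were not analysed here.

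Genes with a mean of at least 10 normalized counts were tested on log2(normalized count + 1), so fold changes are on that scale and understate those of low genes. limma 3.58.1 (R 4.3.3, trend) was fitted to all 12262 such genes, with Benjamini-Hochberg adjustment and a threshold of 0.05. edgeR 4.0.16 and DESeq2 1.42.0 on recovered reads, another scaling, pseudocount or minimum, replicate blocks and leaving out each library were alternatives, and the first 2 tools were also run without control replicate 1, which, like counts without members of low control level, was chosen after seeing the data. Ratios were tested by exact permutation. The fit was tested on simulated data. Genes given in full were those with an unadjusted p under 0.05 or on a panel of interleukin genes chosen by name, and pathway genes named were the 3 with the smallest p of a list. The members and lists were chosen with earlier results of these data known. All 83 members matched RefSeq, 66 of them a promoter. The labels do not tie libraries to separate animals, so p-values measure the spread between these libraries, which may be technical.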

Additional observations from a re-analysis of the deposited data

How the results depend on the processing

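With another scaling (TMM), a pseudocount of 0.5 or 8, a minimum of 50 or none, or robust empirical Bayes, all results that could be computed kept their direction and their side of the threshold. The number of members higher past the threshold, 0 in limma and edgeR, was 4 in DESeq2. In limma it was 27 on leaving out control replicate 1 and 0 on leaving out any other library. It was also 27 in both edgeR and DESeq2 without control replicate 1. Members lower numbered 0 to 2 on leaving out each library and 2 in both tools without control replicate 1. Members at an unadjusted p under 0.05 numbered 6 to 34 and those whose groups did not overlap 10 to 39 on leaving out each library. Both highest counts were without control replicate 1 (70.8 and 81.2% of members, against 36.2 and 53.4% of all genes), and in the other fits the shares over all genes were 6.95 to 13.7% and 26.5 to 36.2%. The sign turned for Il11 (-0.10 in DESeq2, -0.081 in edgeR, -0.13 to 0.92 on leaving out each library), Il10 (-0.050, -0.030, and -0.11 with quantile normalization; -0.22 to 0.69), Il1a (-0.16 in DESeq2, -0.13 in edgeR) and Il2rg (-0.015 in DESeq2; -0.16 to 0.34). On leaving out each library, log2 fold changes ran from -0.71 to 0.28 for Il1rl1, -0.66 to 0.14 for Il7 and -0.15 to 1.40 for Il7r, and differences of log2 ratios from -0.33 to 0.28 for Il1rn to Il1b and -0.18 to 0.23 for Il18bp to Il18. The cause of these changes in sign and size was not tested.

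By the replicate numbers in the titles, deviations of same-numbered libraries correlated at 0.19, -0.096 and 0.26, and those of different-numbered libraries at -0.27 to 0.19. These values do not decide whether the titles pair the samples. With the title numbers as a replicate block, 0 members passed, the median log2 fold change was 0.56 and no call at the adjusted threshold moved. In that fit 17 members had an unadjusted p under 0.05 (limma, 34.7%, against 15.0% of all genes). The numbers in the descriptions differ, and as a replicate block they gave 26 members higher, 2 lower and 31 at an unadjusted p under 0.05 (53.1, 4.08 and 63.3%, against 8.94, 5.58 and 29.0% of all genes), with Il17ra at -0.017, Il1rl1 at 0.23 and Il7 at 0.21. This block leaves control replicate 1 and anti-CD73 replicate 2 alone in their blocks, so that they drop out of the comparison by construction.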

Other observations

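Several members lie side by side in the genome, and neighbours did not share one pattern. On chromosome 1 of GRCm38.p6 the receptor genes Il1r2, Il1r1, Il1rl2, Il1rl1, Il18r1 and Il18rap follow each other, with log2 fold changes of 0.90, -0.24, -0.16, -0.34, 0.40 and 0.015. Control replicate 1 was the lowest control for Il1r2 and Il1r1 and the highest for Il1rl1. On the same chromosome, Il24 and Il10 lie in a cluster with Il20, which had no read, and their values in control replicate 1, 478 and 66.0 normalized counts, were the highest of the 6 libraries. On chromosome 2, Il1a and Il1b, which are neighbours, had 247 and 7385 normalized counts in control replicate 1, again the highest of the 6 libraries for each.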
